A study of Mus musculus with 6 samples.

Results

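The interleukin-1 family genes described here were 10 genes of the deposited count table, chosen by gene symbol: the agonist ligands Il1a, Il1b, Il18, Il33, Il1f6 and Il1f9, the antagonist Il1rn, and the receptor chains Il1r1, Il1rap and Il1r2. All 10 were found among the 54532 genes of the table. They were measured by RNA-seq in N9 microglia, an immortalized line of mouse microglial cells grown in serum-containing medium. The control group was 3 libraries from untreated cells, and the LPS group was 3 libraries from cells given lipopolysaccharide (LPS), a bacterial cell wall molecule that the receptor TLR4 detects, at 1 µg/ml for 6 h. The comparison asks which genes microglia change when they are stimulated with LPS. N9 is 1 cell line, and the labels do not say whether the replicates came from separate cultures, so p-values measure only the spread between these samples, which may be technical.

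The agonists of this family bind a ligand-specific receptor chain, which then recruits an accessory chain and signals through the adaptor MyD88, kinases of the IRAK family and NF-kappaB. Interleukin-1 alpha and beta share the receptor Il1r1 with the accessory chain Il1rap, and the pathway is held in check by an antagonist that occupies Il1r1 (Il1rn) and by a decoy receptor without a signalling domain (Il1r2). Interleukin-1 beta and interleukin-18 are made as inactive precursors that caspase-1 cleaves inside inflammasomes, so their RNA level is not a level of active cytokine. Microglia are a main source of interleukin-1 in the inflamed brain.

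Total counts ranged from 16363767 to 17956772 per library, and 3 counts, the floor used below for bounds, corresponded to 0.161 to 0.19 CPM (counts scaled to library size with TMM factors). Of 12 microglia and macrophage markers, 12 had a mean over 3 counts, with a summed level of 2044 to 2109 CPM in control and 2275 to 2340.1 CPM in LPS libraries, although P2ry12 and Aif1 had fewer than 10 counts in every library. Among cells known for members of this family, the mast cell and basophil list had 0 of 7 markers over the floor. The neutrophil list had 4 of 10 over it, at 5.81 to 7.09 CPM in control and 11.3 to 13 CPM in LPS libraries, with Ly6g at 0 in all 6. The higher LPS sum came from S100a8 (59, 77 and 78 control counts, 178, 170 and 170 LPS counts), whereas Mmp8 had 32, 29 and 21 control counts and 11, 10 and 12 LPS counts. The keratinocyte list had 2 of 9 over it (1.34 to 3.46 against 0.887 to 4.20 CPM). The endothelium list had 5 of 7 over it (106 to 117 CPM in control, 98.4 to 111 CPM in LPS libraries), the astrocyte list 5 of 7 (209 to 211 against 194 to 206 CPM) and the fibroblast list 6 of 6 (0.454 to 11.7 against 0.792 to 8.11 CPM). The groups did not overlap for the microglia and macrophage, neutrophil and astrocyte lists. They also did not overlap for the T, NK and B cell list (1 of 9 over the floor, Lck, 5.70 to 6.63 against 8.84 to 11.4 CPM), the oligodendrocyte list (2 of 7, 33.6 to 40 against 28.3 to 29.6 CPM) and the neuron list (3 of 7, 30.9 to 32 against 25.1 to 27 CPM). Most astrocyte counts were of Aldoc, Gja1 and Aldh1l1, with at most 10 of Gfap and 2 of Aqp4 in any library. Most endothelium counts were of Flt1 and Vwf, with at most 6 of Pecam1 and 0 of Cldn5. Map2 and Syn1 held most neuron counts and Mbp most oligodendrocyte counts, with Olig2 and Sox10 at 0 in every library. Hepatocyte transcripts, with 9 of the 14 listed genes in the table over the floor, summed to 0.0584 to 12.5 CPM in control and 0.305 to 0.731 CPM in LPS libraries and lay mainly in control replicates 2 and 3. The part of the transcripts of any of these lists in the results was not tested. Without control replicates 2 and 3, edgeR still called the 6 members below, but with 1 control library left this assumes that the control group varies like the LPS group. In bulk RNA, more cells expressing a gene and more RNA per cell cannot be told apart.

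In LPS-stimulated versus control N9 microglia, 6 members were up-regulated: 5 of the 6 agonists (Il1a, Il1b, Il1f9, Il1f6 and Il18) and the antagonist Il1rn. By edgeR's quasi-likelihood test, 8 members had enough counts to be tested, 6 were higher at an adjusted p under 0.05 and 0 were lower, beside 18.7% of all 12296 tested genes called higher and 15.7% called lower. No member was lower at an unadjusted p under 0.05 in edgeR (0 members), and DESeq2 also called 0 lower and the same 6 genes higher, beside 14.2% of all genes it tested. In all 6 genes every LPS library lay above every control library, as in 23.7% of tested genes. All 6 also had a log2 fold change over 1.5 and so were differentially expressed genes (DEG) by the thresholds of the study, which 2.40% of tested genes passed upward. Of these, 5 genes, Il1a, Il1b, Il1f9, Il1f6 and Il18, passed the filter on low counts only through the LPS libraries, so the share of tested members that were called is no evidence about the family. The receptor chains Il1rap and Il1r2 did not pass the test, and Il1r1 and the agonist Il33 had too few counts to be tested.

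**Figure D1:**
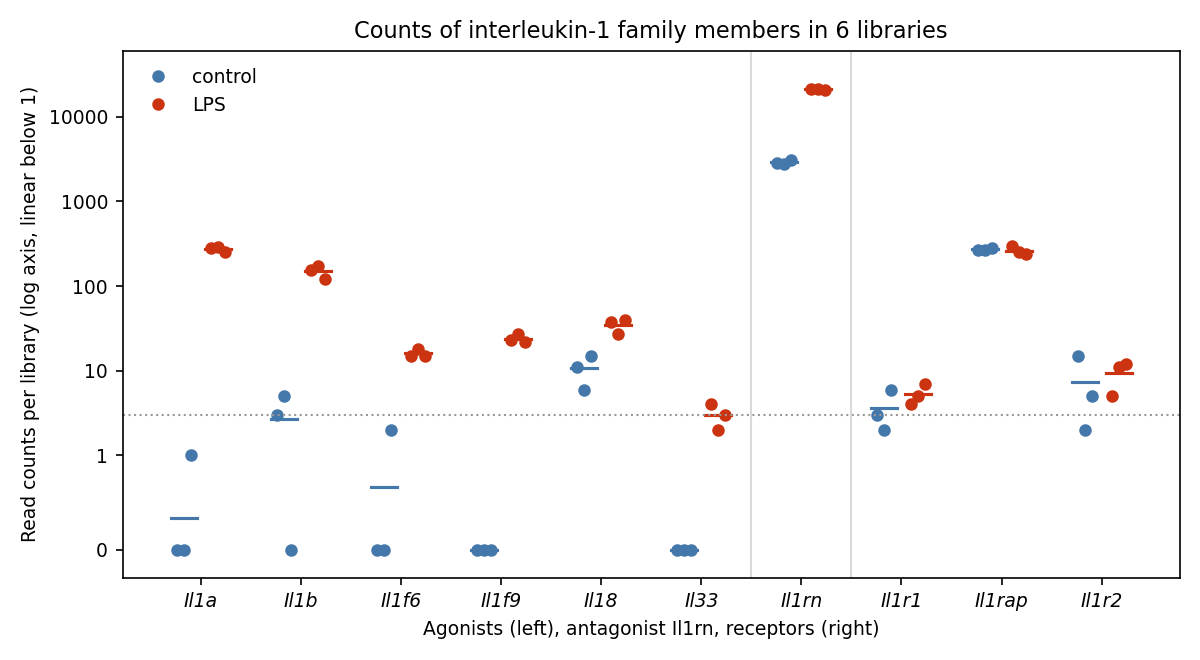
Read counts per library (vertical log axis, linear below 1) of the 10 members, agonists at the left, the antagonist in the middle and receptors at the right; each point is 1 library, short bars are group means and the dotted line is the floor of 3 counts. The LPS points of Il1a, Il1b, Il1f6, Il1f9, Il18, Il33 and Il1rn all lie above the control points, whereas those of the 3 receptors overlap.

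The sequences just before the start sites of 4 of the induced genes are given because these genes rose together, Il1rn from a high control level and the others from at or near the floor. They are the 250 bases before each start in RefSeq (GRCm38.p6), written 5′ to 3′ on the gene's strand, and the capitals mark matches to any of 6 motifs. Il1a is read from chr2:129309973-129310222 (minus strand), Il1b from chr2:129371140-129371389 (minus strand), Il1f9 from chr2:24186226-24186475 (plus strand) and the first of the 3 RefSeq starts of Il1rn from chr2:24336610-24336859 (plus strand).
Il1a: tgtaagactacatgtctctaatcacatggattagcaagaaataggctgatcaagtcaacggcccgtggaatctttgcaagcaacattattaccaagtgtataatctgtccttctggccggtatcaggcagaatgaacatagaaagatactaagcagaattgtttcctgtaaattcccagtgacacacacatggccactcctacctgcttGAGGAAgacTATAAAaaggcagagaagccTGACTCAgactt
Il1b: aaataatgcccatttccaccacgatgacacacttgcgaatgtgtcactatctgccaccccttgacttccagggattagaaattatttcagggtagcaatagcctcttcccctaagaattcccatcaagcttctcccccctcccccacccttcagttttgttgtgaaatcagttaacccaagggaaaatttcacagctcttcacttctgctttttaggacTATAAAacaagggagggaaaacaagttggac
Il1f9: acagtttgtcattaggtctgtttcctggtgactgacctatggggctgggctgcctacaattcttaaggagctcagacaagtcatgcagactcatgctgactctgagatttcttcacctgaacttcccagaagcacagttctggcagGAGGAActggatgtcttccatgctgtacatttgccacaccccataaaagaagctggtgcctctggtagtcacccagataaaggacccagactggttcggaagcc
Il1rn: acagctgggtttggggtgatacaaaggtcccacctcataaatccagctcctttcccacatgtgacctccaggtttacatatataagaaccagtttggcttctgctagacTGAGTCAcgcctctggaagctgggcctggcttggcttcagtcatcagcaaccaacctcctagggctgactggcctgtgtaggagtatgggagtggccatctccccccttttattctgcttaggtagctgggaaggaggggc

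The motifs, searched on both strands, were the NF-kappaB consensus, the AP-1 motif TGANTCA, the C/EBP motif TTGCNNAA, the ISRE core, the PU.1 motif GAGGAA and the TATA box TATAAA. The Il1a and Il1b sequences each held a TATA box on the gene's strand, with its first base 32 bases before the start in Il1a and 31 bases before it in Il1b. A TATA box was found in 12.4% of 32851 RefSeq promoter windows of the same length, and on the gene's strand 25 to 35 bases before the start in 1.75%. The second of the Il33 starts, a gene with no call, also had a TATA box on the gene's strand, 29 bases before it. The Il18 window, not shown although Il18 was also called, held only a TATA box on the other strand, 175 bases before the start. Il1a also held the AP-1 match TGACTCA 12 bases before the start and PU.1 letters 41 bases before it. The first Il1rn start had the AP-1 match TGAGTCA 141 bases upstream. The windows of Il1rn starts 2 and 3, whose sequences are not shown, matched none of these motifs. AP-1 letters occurred in 6.75% of windows and PU.1 letters, also found in Il1f9 104 bases before its start, in 23.3%. The ISRE core, in 2.98% of windows, matched none of the 13 windows of the 9 members with an entry, and the NF-kappaB consensus, in 3.9% of windows, matched only the second Il1r1 start among them. These matches describe letters in a window and nothing about which factor was bound, and counts per gene do not tell the Il1rn starts apart.

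Il1a (ENSMUSG00000027399, chromosome 2 from 129299610 to 129309972, minus strand, mm10) encodes interleukin-1 alpha, an alarmin that is active without cleavage. Its LPS libraries held 282, 287 and 252 counts, where the control libraries held 0, 0 and 1. Every LPS library was thus far above the floor and every control library below it. The level went from 0.0179 ± 0.0311 to 16.9 ± 1.37 CPM (SD, n = 3 each), which was at least 100.1-fold higher against the floor of 3 counts per library (adjusted p = 1.1e-11, edgeR). Among the 12296 tested genes ranked by level per length, Il1a moved from position 12287 to position 5534.

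Il1b (ENSMUSG00000027398, chromosome 2 from 129364570 to 129371139, minus strand) encodes interleukin-1 beta, the caspase-1 substrate. Counts of 3, 5 and 0 in control and of 155, 172 and 122 in LPS libraries gave 0.153 ± 0.143 and 9.25 ± 1.61 CPM. The groups were widely separated, but the control level rests on 8 reads in all. The log2 fold change was 5.88 (SE 0.38, 95% interval 5.07 to 6.69, adjusted p = 1.2e-08, edgeR). It lay between 5.28 and 6.65 when each library was left out in turn. Per length, Il1a exceeded Il1b in each LPS library, by ratios of 1.76, 1.61 and 2.00.

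Among the interleukin-36 agonists, Il1f9 and Il1f6 were also higher with LPS, at lower levels, whereas Il1f8 (interleukin-36 beta) had 0 counts in every library. Il1f9 (ENSMUSG00000044103, chromosome 2 from 24186476 to 24193568, plus strand), the symbol in these files for interleukin-36 gamma, had 0 counts in every control library, while LPS libraries 1, 2 and 3 held 23, 27 and 22. That was at least 8.77-fold higher, with an LPS level of 1.48 ± 0.155 CPM (adjusted p = 1.4e-05, edgeR). Il1f6 (ENSMUSG00000026984, chromosome 2 from 24215418 to 24225702, plus strand), for interleukin-36 alpha, had 0, 0 and 2 control counts and 15, 18 and 15 LPS counts. It was at least 5.85-fold higher at 0.987 ± 0.0975 CPM (adjusted p = 2.1e-04, edgeR). Both genes were off or nearly so in control cells and remained among the least abundant tested genes with LPS, at positions 10640 and 10340 of 12296 by level per length. Both agonists are best known from epithelia, and the part of epithelial transcripts in these values was not tested.

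Il18 (ENSMUSG00000039217, chromosome 9 from 50554827 to 50581840, plus strand), which encodes the interferon-gamma inducing cytokine interleukin-18, was detected in every library. Its counts were 11, 6 and 15 in control and 38, 27 and 40 in LPS libraries, so the groups did not overlap. The level rose from 0.596 ± 0.237 to 2.16 ± 0.448 CPM. The log2 fold change of 1.84 (SE 0.36, adjusted p = 0.00103, edgeR) had a 95% interval of 1.07 to 2.61, which spans the DEG threshold of 1.5, and a test against that threshold itself (glmTreat) gave an adjusted p of 1.000. Il18 overlaps by 355 bases with Bco2 on the other strand, which had 10, 5 and 13 control counts and 4, 8 and 11 LPS counts, and whether the counting used strand is not given in the sources used here.

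Il33 (ENSMUSG00000024810, chromosome 19 from 29925114 to 29960718, plus strand) encodes a nuclear alarmin of epithelium, endothelium and glia. Control libraries had 0 counts and LPS libraries 4, 2 and 3, too few for the main test. The LPS libraries lay above the control libraries (exact two-sided permutation p = 0.1, the smallest that 3 against 3 allows), which was also true of 4.43% of the 10015 genes with a count but below the filter. Fitted in edgeR without a filter, Il33 had an adjusted p of 0.0630. At this depth no difference in Il33 was established, and no fold is given because both groups were at or near the floor.

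Il1rn (ENSMUSG00000026981, chromosome 2 from 24336853 to 24351494, plus strand), the receptor antagonist, was by far the most abundant member in both groups. Control libraries held 2851, 2799 and 3038 counts and LPS libraries 21257, 21332 and 20755. The replicates were close together and the groups far apart, at 163 ± 3.91 and 1304 ± 41.9 CPM. The gene rose 8.01-fold (log2 fold change 3.00, SE 0.04, 95% interval 2.92 to 3.09, adjusted p = 2.5e-16, edgeR). Its position by level per length moved from 1984 to 220 among the 12296 tested genes. Unlike the agonists, it was already well expressed without LPS.

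The receptor chains showed no call. Il1rap (ENSMUSG00000022514, chromosome 16 from 26581704 to 26730117, plus strand), the accessory chain shared by the interleukin-1, interleukin-33 and interleukin-36 receptors, had 265, 269 and 279 control counts and 301, 252 and 236 LPS counts. The groups overlapped, at 15.2 ± 0.230 and 16.3 ± 2.48 CPM. The log2 fold change was 0.09 (SE 0.11, adjusted p = 0.572, edgeR) with a 95% interval of -0.15 to 0.33, and it was -0.04 without LPS replicate 1, the highest library. The whole interval lies within 0.33 of no change on the log2 scale.

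Il1r1 (ENSMUSG00000026072, chromosome 1 from 40225080 to 40317257, plus strand), the signalling receptor for interleukin-1 alpha and beta, was close to the floor in both groups. It had 3, 2 and 6 control counts and 4, 5 and 7 LPS counts, which overlap (exact two-sided permutation p = 0.300, DESeq2 adjusted p = 0.731). Its level was 0.204 ± 0.108 CPM in control and 0.328 ± 0.0887 CPM in LPS libraries. Il1r1 RNA was thus barely detected in this line at this depth, with or without LPS.

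Il1r2 (ENSMUSG00000026073, chromosome 1 from 40074079 to 40125231, plus strand), the decoy receptor, had 15, 2 and 5 control counts and 5, 11 and 12 LPS counts. Control replicate 1 was the highest of all 6 libraries and the groups overlapped. The log2 fold change of 0.47 (SE 0.62, adjusted p = 0.612, edgeR) had a wide 95% interval of -0.86 to 1.80, which holds both falls and rises. The value was 1.53 without control replicate 1. It was -0.60 without control replicates 2 and 3, where the 1 control library left is the one with the most counts.

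**Figure D2:**
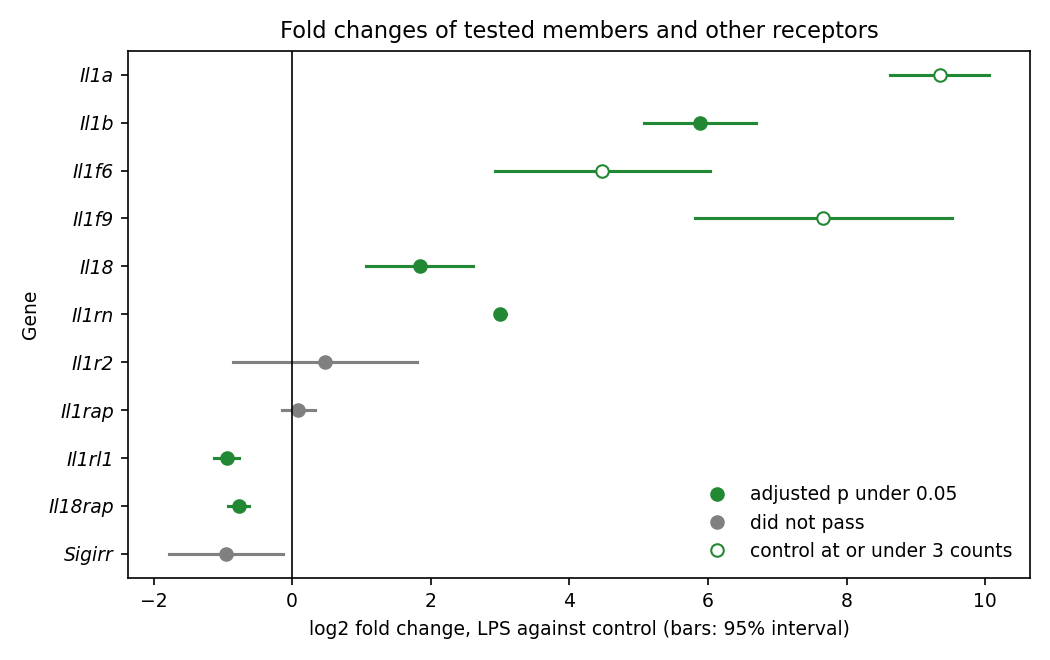
Log2 fold change of LPS against control (horizontal axis, points) with 95% intervals (bars) for the 8 tested members and 3 other receptor genes. Open points mark genes whose control libraries were all at or under 3 counts, for which the fitted value depends strongly on the prior count. Il1rn has the narrowest interval, those of Il1r2 and Il1rap include 0, and those of Il1rl1, Il18rap and Sigirr lie below 0, of which Sigirr did not pass the adjusted test.

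Ordered by level per length, control libraries had Il1rn first at 29.4 ± 0.707 CPM per kb, then Il1rap at 1.34 ± 0.0203 and Il18 at 0.578 ± 0.230 CPM per kb. From Il18 on, each gene overlapped the next one in the order, so Il18 was not separate from Il1r2, which followed it. With LPS the order was Il1rn at 236 ± 7.56, Il1a at 8.56 ± 0.692, Il1b at 4.85 ± 0.844, Il18 at 2.10 ± 0.434 and Il1rap at 1.43 ± 0.218 CPM per kb. Il1f6 followed at 1.12 ± 0.110 and Il1f9 at 0.899 ± 0.0940 CPM per kb, and the last places were taken by Il1r2, Il33 and Il1r1. Only Il18 and Il1rap, and Il33 and Il1r1, were LPS neighbours whose libraries overlapped.

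RNA of the antagonist outnumbered RNA of the interleukin-1 agonists in every library, and by less after LPS. Protein was not measured in these libraries. Per length and with 0.5 counts added, Il1rn stood to Il1a plus Il1b at ratios of 281, 176 and 718 in control libraries and of 17.1, 16.3 and 19.5 in LPS libraries. The control ratios were scattered and the LPS ratios close together, without overlap. On the log2 scale the mean ratio was 8.36 ± 1.03 in control and 4.14 ± 0.13 in LPS libraries, a difference of -4.22 (exact two-sided permutation p = 0.1, the smallest possible with 3 against 3). The control values rest on 3, 5 and 1 counts of Il1a and Il1b together, against 437, 459 and 374 with LPS, and the difference ranged from -4.67 to -3.66 with each library left out. With 1 count added in place of 0.5 it was -3.98. The ratio restates that Il1a and Il1b rose more than Il1rn, as given above, so its p-value adds no support. Over all 7 ligands, Il1rn held 99.5%, 99.6% and 99.4% of the control counts and 97.6%, 97.6% and 97.9% of the LPS counts.

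**Figure D3:**
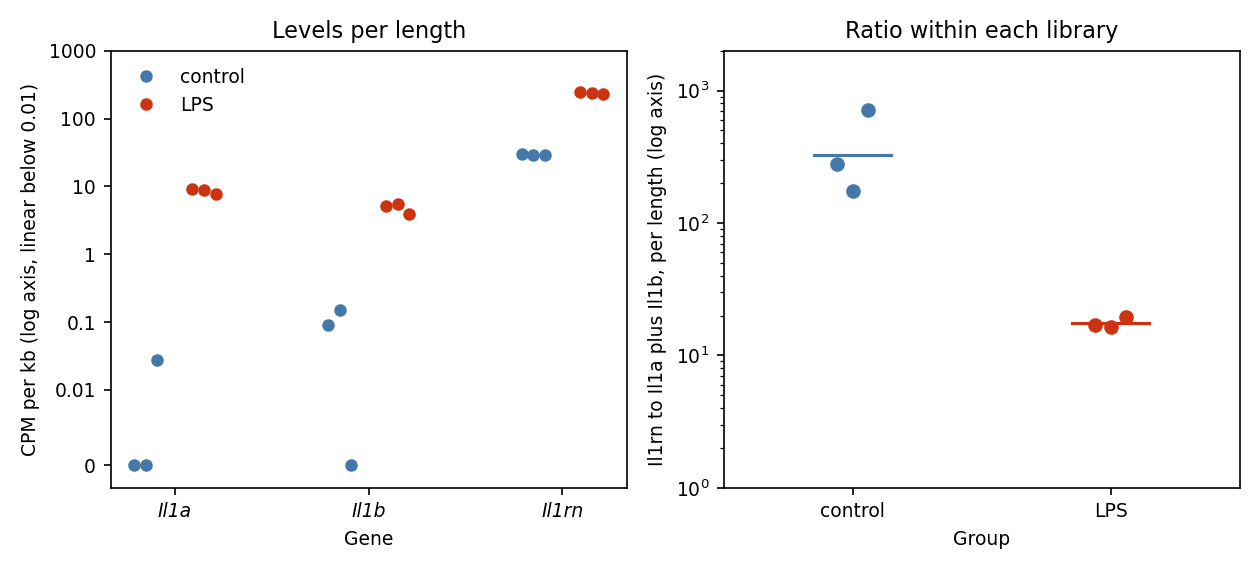
Left, level per length (CPM per kb, log axis, linear below 0.01) of Il1a, Il1b and Il1rn in each library; right, the ratio of Il1rn to Il1a plus Il1b per length in each library (log axis), with bars at the geometric means of 329 in control and 17.6 in LPS. Il1rn is higher than both agonists in all 6 libraries, and the 3 LPS ratios lie below the 3 control ratios.

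The remaining ligands and receptors of the family were examined as lists. Of 6 ligand symbols, 3 were in the table, and Il1f5 (the interleukin-36 antagonist), Il1f8 (interleukin-36 beta) and Il1f10 had 0 counts in all 6 libraries. Il36rn, Il36b and Il37 had no row under those symbols. Of 8 other receptor genes, 3 were tested, 0 were higher and 2 were lower, beside 18.7% and 15.7% of all tested genes. The median log2 fold change was -0.94 over those 3 genes, beside 0.00 over all tested genes, and the filter had removed Il1rl2, described below.

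Il1rl1, the interleukin-33 receptor ST2, fell from 27.5 ± 1.60 to 14.3 ± 0.660 CPM, with 461, 516 and 487 control counts and 217, 246 and 230 LPS counts (log2 fold change -0.94, SE 0.09, adjusted p = 7.7e-07, edgeR). Il18rap, the accessory chain of the interleukin-18 receptor, fell from 35.9 ± 1.30 to 21 ± 0.660 CPM (log2 fold change -0.77, SE 0.07, adjusted p = 9.8e-07, edgeR). Neither reached the DEG threshold, and both kept an adjusted p under 0.05 in all 13 alternatives with a test. Il18r1, the ligand-binding partner of Il18rap, had 4, 2 and 0 control counts and 0, 4 and 0 LPS counts, so the accessory chain was measured here nearly without its partner.

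Il1rl2, the receptor for the interleukin-36 agonists, had 1, 1 and 0 control counts and 22, 8 and 17 LPS counts. It was just below the filter, with a mean level over the LPS libraries at least 5.76-fold higher against the floor (exact two-sided permutation p = 0.1, the smallest possible). It had an adjusted p of 0.00104 in DESeq2 and was called in all 7 alternatives that tested it. RNA of the interleukin-36 receptor and of the agonists Il1f6 and Il1f9 was found in the same LPS libraries and was at or under the floor in the control libraries. Sigirr, a negative regulator of the family, had 19, 27 and 20 control counts and 7, 15 and 9 LPS counts (log2 fold change -0.95, SE 0.38, 95% interval -1.77 to -0.13, adjusted p = 0.0713, edgeR). Il18bp, the secreted interleukin-18 binding protein, had 0, 8 and 5 control counts and 19, 7 and 9 LPS counts (adjusted p = 0.208, DESeq2). Il1rapl1 and Il1rapl2 had 0 counts throughout.

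Most members lie in 3 clusters. Within the 272 kb around Il1a and Il1b, the other tested protein-coding genes moved little: Slc20a1, a phosphate transporter, rose by a log2 fold change of 0.25 (SE 0.04, adjusted p = 2.1e-04, edgeR), and Ckap2l, a mitotic spindle protein, fell by 0.27 on the log2 scale (SE 0.06, adjusted p = 0.00285, edgeR). The antisense gene Il1bos, which overlaps Il1b, had 1 count in all, in LPS replicate 1. In the 398 kb around Il1rn, Il1f6 and Il1f9, the genes Il1f8, Il1f5 and Il1f10 lie between or beside the induced ones and were silent. Psd4 next to Il1rn, an exchange factor for ARF GTPases, rose from 135 ± 1.21 to 259.6 ± 6.63 CPM (log2 fold change 0.95, SE 0.04, adjusted p = 2.0e-10, edgeR). In the 678 kb receptor cluster, Il1rl1 and Il18rap fell between genes with other behaviour, Map4k4 at a log2 fold change of 0.36 (SE 0.04, adjusted p = 9.4e-06, edgeR) and Slc9a4 at 0.21 (SE 0.13, adjusted p = 0.242, edgeR).

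**Figure D4:**
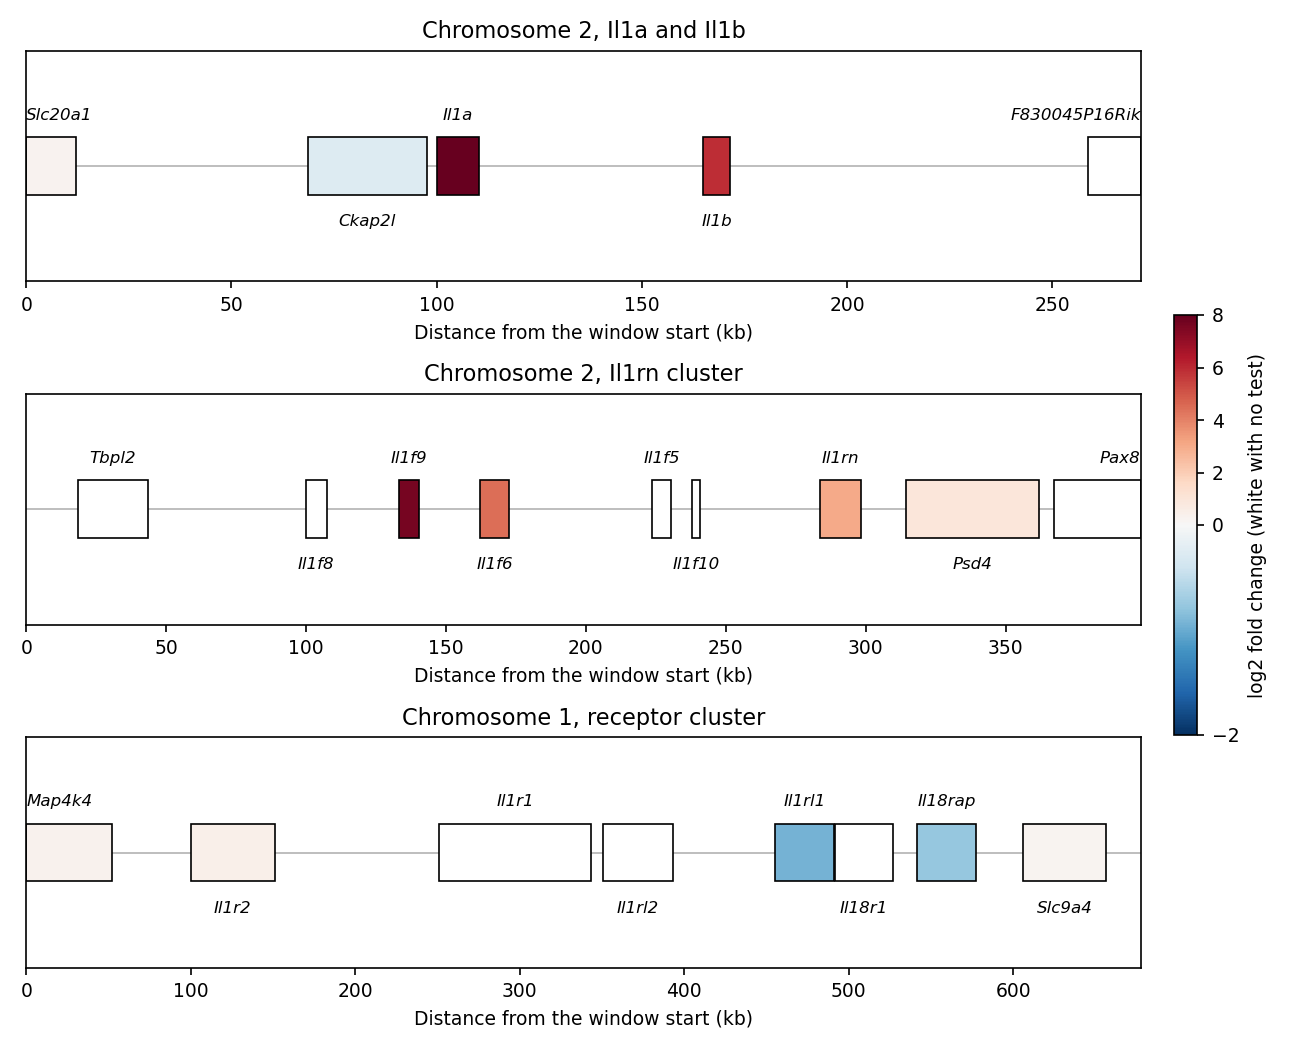
Protein-coding genes along the 3 windows (horizontal axis, distance from the window start in kb), filled by log2 fold change of LPS against control (red higher, blue lower, with separate linear scales above and below 0) and white where the gene was not tested. Induced ligand genes stand beside genes that were silent or moved less, and Il1rl1 and Il18rap are the blue genes of the receptor cluster.

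Of 40 listed genes of signalling downstream of the receptors, 39 were tested, 21 rose and 1 fell, and 5 of those that rose were DEG, beside 18.7% of all tested genes called higher, 15.7% called lower and 2.40% up-regulated DEG. Their median log2 fold change was 0.31, beside 0.00 over all tested genes. The genes of this list with the largest rises are named first, and they have differing roles. Whether inhibitors of the pathway rose more than the rest of the list was not tested. Nfkbiz, a nuclear inhibitor-of-kappaB protein that serves as a coactivator of secondary response genes, rose from 5.58 ± 1.25 to 67.7 ± 6.36 CPM (log2 fold change 3.59, SE 0.12, adjusted p = 5.6e-12, edgeR). Tnfaip3, the ubiquitin-editing inhibitor A20, rose from 19.6 ± 1.41 to 99.3 ± 3.67 CPM (adjusted p = 5.7e-13, edgeR), and Irak3, a pseudokinase that restrains the pathway, from 4.68 ± 0.139 to 19.7 ± 0.980 CPM (adjusted p = 1.6e-09, edgeR). Map3k8, a kinase upstream of ERK, had a log2 fold change of 1.84 (SE 0.14, adjusted p = 9.9e-08, edgeR). The gene that fell was Mapk14, the p38 alpha kinase, by 0.17 on the log2 scale (SE 0.04, adjusted p = 0.00535, edgeR). These proteins also act downstream of the LPS receptor TLR4, which shares MyD88 and the IRAK kinases.

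Of 30 listed genes of precursor processing, release and inflammasomes, 21 were tested, 11 rose, 2 fell and 3 were up-regulated DEG (18.7%, 15.7% and 2.40% over all tested genes), with a median log2 fold change of 0.14. Casp4, the caspase that senses cytosolic LPS (caspase-11), rose from 20.7 ± 1.81 to 89.1 ± 4.46 CPM (log2 fold change 2.11, SE 0.07, adjusted p = 5.2e-12, edgeR). Serpinb9, a granzyme B inhibitor, rose from 30.8 ± 0.775 to 115 ± 6.83 CPM (adjusted p = 2.0e-12, edgeR), and Nlrp3, the inflammasome sensor, from 30.3 ± 2.68 to 87.7 ± 3.20 CPM (adjusted p = 1.1e-10, edgeR). Ninj1, which ruptures the plasma membrane of dying cells, had a log2 fold change of 0.85 (SE 0.05, adjusted p = 1.5e-09, edgeR). Casp1 itself, which cleaves interleukin-1 beta and interleukin-18 and is named outside the rule for its role, rose by 0.67 on the log2 scale (SE 0.05, adjusted p = 8.8e-08, edgeR). Nek7, an NLRP3 partner, fell by 0.14 on the log2 scale (SE 0.05, adjusted p = 0.0478, edgeR), without a call in DESeq2 (adjusted p = 0.0793). Nlrp1a, also on this list and named outside the rule, was removed by the filter on low counts. It had 7, 16 and 19 control counts and 0, 3 and 4 LPS counts. DESeq2 called it lower (log2 fold change -2.45, adjusted p = 0.0337).

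Of 24 listed genes known to respond to interleukin-1, 15 were tested, 14 rose, 0 fell and 10 were up-regulated DEG (18.7%, 15.7% and 2.40% over all tested genes), with a median log2 fold change of 1.89. Some of them, Nos2, Csf3 and Mmp13 included, passed the filter only through the LPS libraries, so this count and median are no evidence about the list. Nos2, the inducible nitric oxide synthase, had 0, 2 and 2 control counts and 285, 385 and 312 LPS counts and was at least 119.5-fold higher (adjusted p = 2.2e-11, edgeR). Cxcl2, a neutrophil chemoattractant, rose from 1.13 ± 0.286 to 109 ± 2.29 CPM (log2 fold change 6.60, SE 0.10, adjusted p = 1.1e-15, edgeR). Csf3, granulocyte colony stimulating factor, was at least 42.2-fold higher (adjusted p = 6.9e-09, edgeR), and Mmp13, a collagenase, rose by 3.84 on the log2 scale (SE 0.31, adjusted p = 1.4e-07, edgeR). The genes of this list are also induced by LPS directly, and which route acted here was not tested.

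**Figure D5:**
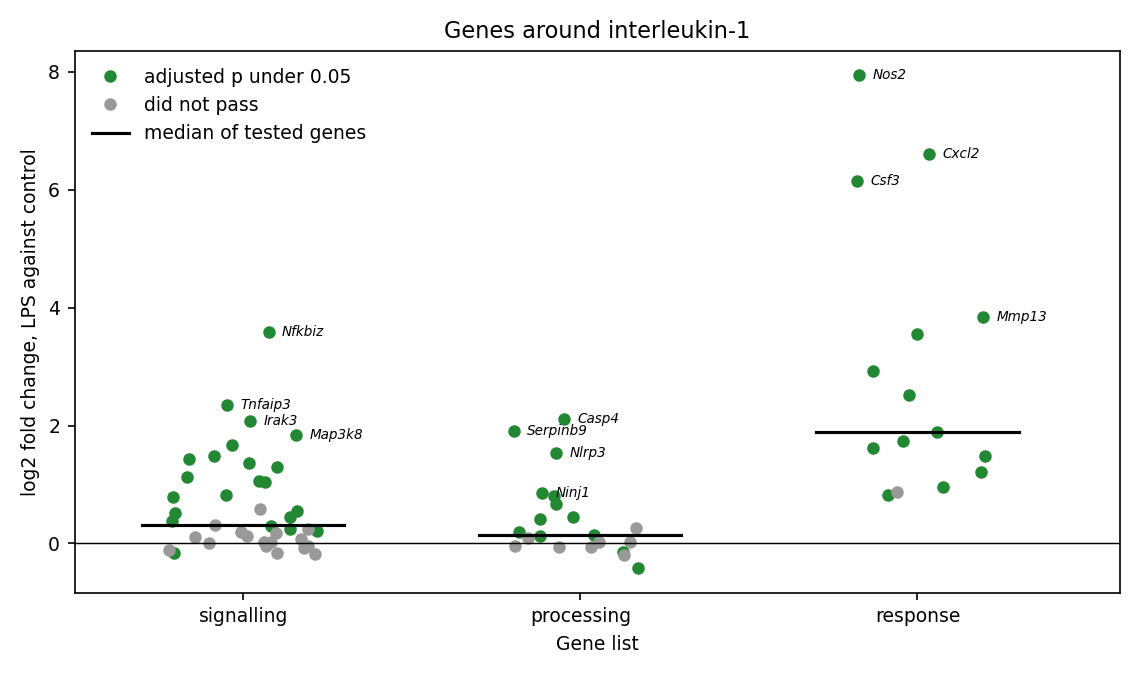
Log2 fold change of LPS against control (vertical axis) of each tested gene in the 3 lists, green where the adjusted p was under 0.05 and grey where it was not, with the list median as a bar; horizontal spread within a list only separates points. The medians lie at 0.31 for signalling, 0.14 for processing and 1.89 for response genes.

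Genes whose levels ran most like a member's over the 6 libraries were sought among 12083 genes with a control mean of at least 10 counts, by the root mean square difference of log2 CPM after subtracting each gene's control mean. For Il1rn they were Tnfrsf1b (0.05), a receptor of tumor necrosis factor, Trim30a (0.06) and the chemokine Ccl7 (0.07), with log2 fold changes of 3.06, 2.97 and 2.93. For Il18 they were Zfp469 (0.21), Mybpc3 (0.28) and H2-T10 (0.28), a looser likeness at these low counts. For Il1rap they were Phospho2, Zfp809 and Anapc10 (0.04 each), none of which was called.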

How the data were processed

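RNA-seq of N9 microglia gave 6 libraries, grouped by the treatment in the labels (3 untreated, 3 LPS). The authors deposited raw read counts per gene, made by Novogene, with featureCounts version 1.5.0-p3 and the mm10 build per the submitters' processing notes; the aligner and the use of strand are not given in the sources used here. The authors' comparison table holds DESeq2 fold changes and p-values and 18 further per-sample columns, none of them used. No row lacked a gene name (0 rows).

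edgeR 4.0.16 under R 4.3.3 fitted its quasi-likelihood model to the 12296 genes kept by filterByExpr, with TMM factors, a prior count of 0.125 and Benjamini-Hochberg adjustment over those genes. DEG were called at the study's thresholds, 0.05 for the adjusted p and 1.5 for the size of the log2 fold change. The standard error was the log2 fold change divided by the square root of F. CPM used TMM library sizes, and levels per length used the deposited gene lengths. A gene with all control libraries at or under 3 counts was given as a bound, its mean LPS level against 3 counts per control library. The counts carry no molecular identifiers, so reads may repeat a molecule and the bounds cover only counting error in the control libraries. Single values were tested by exact permutation (scipy 1.17.1, Python 3.11.15). The fits were tested on simulated counts with 200 changed genes. Figures used matplotlib 3.10.9.

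The members and gene lists were chosen with earlier results of these data known. Named were all members, all other ligands and receptors, from each further list the 4 called genes with the largest change above a mean of 50 counts, with up to 2 that fell, tested protein-coding neighbours within 100 kb of the clusters, and the 3 genes most alike. Of the genes this rule names, 1 is not reported here. The start and end of all 10 members were those of GENCODE M21 on GRCm38, and promoter windows came from RefSeq on GRCm38.p6, which had an entry for 9 members. Alternatives were DESeq2 1.42.0, RLE size factors, no filter, a filter at a mean of 10 counts, robust dispersion, a prior count of 2, glmTreat, a replicate block, each library left out, and, chosen after seeing the data, control replicates 2 and 3 left out.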

Additional observations from a re-analysis of the deposited data

How the results depend on the processing

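Of the 239 values recomputed under alternatives, 235 kept their direction and side of the threshold or, for a count, stayed within 1.5 times. The 6 up-regulated members were called higher in every alternative that tested them, with adjusted p-values of 1.7e-05 to 0.0344 for Il18 and of 1.4e-06 to 0.00796 for Il1f6, which the filter at a mean of 10 counts removed. By glmTreat, 183 genes passed a log2 fold change of 1.5 in place of 326, and 5 members in place of 6, Il18 being the one lost. Without control replicates 2 and 3, a fit with 1 control library that takes its spread from the LPS libraries, the log2 fold change of Il1r2 was -0.60 in place of 0.47, and 4 other receptor genes were called in place of 2, the additional ones being Il1rl2, with 1 count in that library, and Il18bp, with 0 counts in it (adjusted p = 0.0346 for Il18bp, edgeR). With each library left out in turn, Il1rap ranged from -0.04 to 0.18 and Il1r2 from 0.02 to 1.53, called genes ranged from 2 to 3 among other receptors, 21 to 22 in signalling, 9 to 14 in processing and 13 to 15 in response, and all DEG from 353 to 377. The cause of these shifts was not tested. Same-numbered libraries deviated together with correlations of 0.136, 0.0588 and -0.00415, and differently numbered ones with correlations from -0.144 to 0.0912. The labels do not say that the numbers pair the samples, and these few correlations cannot decide it. A replicate block left 6 members called and 6 DEG, with 4474 genes called in all in place of 4221. Depth limits Il33, Il1r1 and Il1r2, all at or under 15 counts per library.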
